A study of Arabidopsis thaliana with 12 samples.

Results

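The loci described here are 9 genes that set the upper (adaxial) and lower (abaxial) sides of the Arabidopsis leaf: the adaxial genes AS1, AS2, PHB, PHV and REV and the abaxial genes KAN1, KAN2, FIL and YAB3. They were chosen by locus identifier, 9 of the 27444 protein-coding genes on chromosomes 1 to 5, and each was examined over the gene, 4 kb upstream and 1 kb downstream. Open chromatin was mapped in whole seedlings 10 days after germination by ATAC-seq, which relies on the Tn5 transposase cutting accessible DNA. The 12 samples, all in the Col-0 ecotype, were 2 replicates each of wild type, the atbmi1abc triple mutant, the clf28/swn7 and ring1ab double mutants, and the emf1-2 and lhp1 mutants. These lack, or have less of, Polycomb group proteins, which keep genes repressed through marks on histones. The study treats ring1ab as a weak mutant, and atbmi1abc, clf28/swn7 and emf1-2 as severe ones whose shoots do not leave the embryonic state, so the tissues in a sample differ between genotypes. The data analysed are 1 merged list of 23226 Tn5 hypersensitive sites (THSs), regions called in both replicates of at least 1 genotype. It is larger than the consensus set the study reports, from which regions of low signal were removed. The list names no genotype and carries no signal or depth, so no value below has an error over replicates, none was tested, and genotypes were not compared. From the list alone, a THS may have been open in any of the 6 genotypes, in few cells or in many. The study's supplement describes THS locations in the different genotypes, which were not used here.

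Leaf polarity rests on opposing sets of regulators. The class III homeodomain-leucine zipper (HD-ZIP III) proteins PHB, PHV and REV promote upper-side identity, and microRNAs miR165 and miR166 cleave their mRNAs on the lower side. KANADI proteins (KAN1, KAN2) are GARP-family repressors of the lower side, and the YABBY proteins FIL and YAB3 act there too and promote growth of the blade. AS1, a MYB protein, and AS2, a LOB-domain protein, form a complex that represses class I KNOX genes and lower-side genes, and KAN1 is known to repress AS2 directly. Several of these genes are known Polycomb targets.

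All 9 loci held THSs, 33 in all. The 5 adaxial windows held 15 and the 4 abaxial windows 18. KAN1 had 6, KAN2 and YAB3 5 each, AS1 and PHB 4 each, PHV 3, and AS2, REV and FIL 2 each. The median was 3 per adaxial locus (range 2 to 4) and 5 per abaxial locus (2 to 6), so the groups overlapped. Over all protein-coding genes the median was 2, with quartiles of 1 and 2. At least 1 THS was present at 82.7% of protein-coding genes and at least 2, the number every member reached, at 51.5%. At least 4, reached by AS1, PHB, KAN1, KAN2 and YAB3, were present at 8.65%, and at least 3, reached by PHV as well, at 24.2%. At least 5, reached by KAN1, KAN2 and YAB3 and by no adaxial locus, were present at 2.45%, and the 6 of KAN1 at 0.594%. Counting only regions of at least 200 bp, the groups had 11 THSs each and no member reached 5. KAN1 and YAB3 then had 4 each (at least 4 at 1.67% of protein-coding genes), PHB had 3, FIL had 1, and KAN2 had 2, as many as AS1, AS2, PHV and REV. The member windows were longer than those of most genes, with a median of 9904 bp against 7078 bp. Their upstream intergenic space was also longer, with a median of 5350 bp to the next protein-coding gene (2639 to 9822 bp) against 1112 bp, and its part in the counts was not tested.

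**Figure D1:**
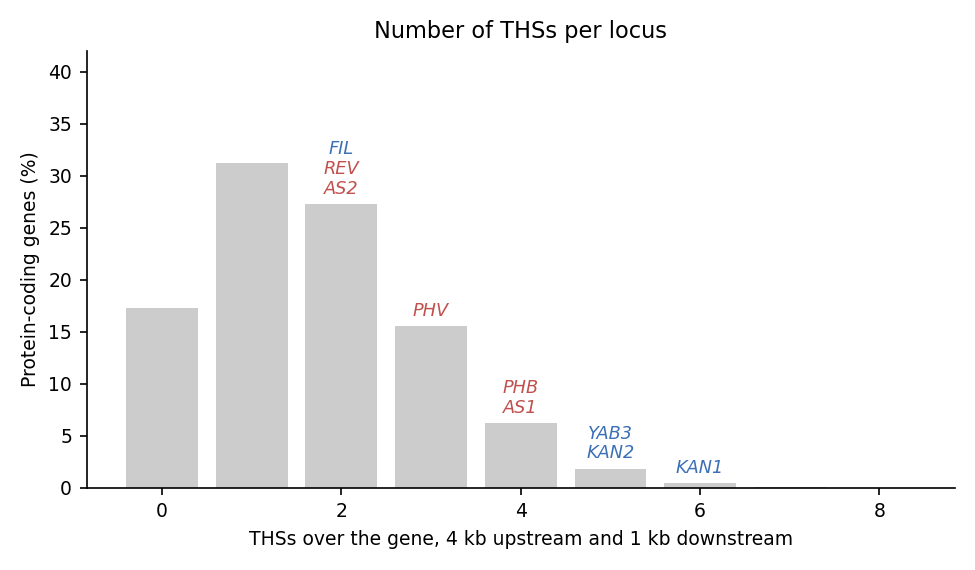
The horizontal axis gives the number of THSs over a gene, its 4 kb upstream and its 1 kb downstream, and grey bars give the percent of 27444 protein-coding genes with that number. Names stand above the bar of their own number, adaxial loci in red and abaxial loci in blue: KAN1 is at 6, KAN2 and YAB3 are at 5, and the 5 adaxial loci lie between 2 and 4.

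As a share of the window, which takes its length into account, the THSs covered between 6.95% (REV) and 16.9% (AS2). The order was AS2, KAN1 (15.1%), YAB3 (14.5%), KAN2 (13.6%), AS1 (12.8%), PHB (12.5%), PHV (7.70%), FIL (7.21%) and REV. The first place of AS2 rested on a THS of 1070 bp that lay nearer to the TSS of the neighbour KOR2. Counting only THSs nearest to the TSS of the locus itself, AS2 had 3.22%, the lowest adaxial share, FIL had 2.38% and YAB3 8.12%, while KAN1 and KAN2 kept 15.1% and 13.6%. With all THSs counted, both groups spanned nearly the same range, with medians of 12.5% for adaxial and 14.0% for abaxial loci. The median over all protein-coding genes was 5.87%, and each member lay above it: between 56.6% (REV) and 92.5% (AS2) of protein-coding genes had a smaller covered share. The 33 THSs had a median length of 244 bp (55 to 1070 bp), against 254 bp for the whole list. Of these, 11 were shorter than 200 bp, 4 of 15 at adaxial and 7 of 18 at abaxial loci. In the whole list 8371 of 23226 were that short, a like share. The median GC content of the 33 was 36.0%, against 36.4% for all THSs.

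**Figure D2:**
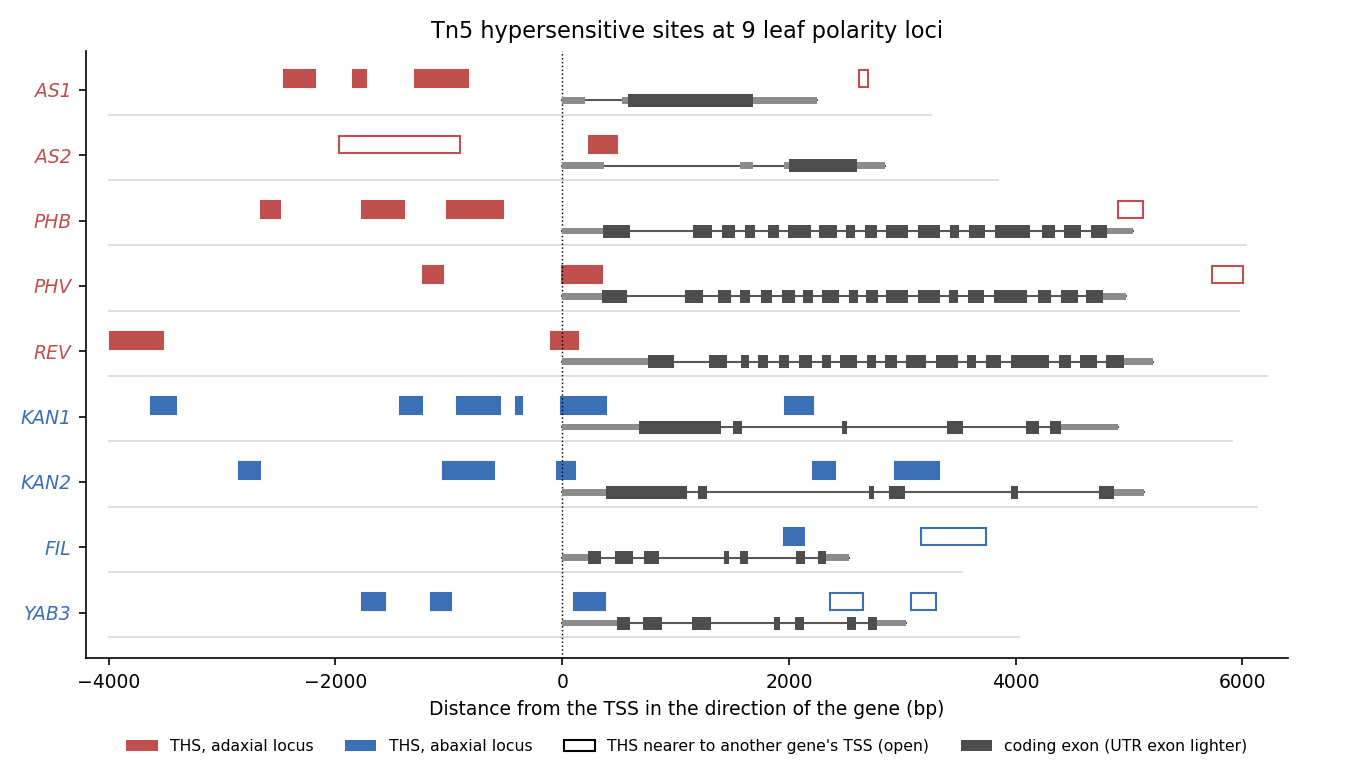
Each row is 1 locus, drawn by distance from the transcription start site (TSS, dotted line) in bp, with coding exons dark and untranslated exons lighter; the thin grey line is the window searched. Filled boxes are THSs whose nearest protein-coding TSS is that of the locus and open boxes those nearer to another gene. Boxes wholly upstream are 9 of 15 at adaxial and 8 of 18 at abaxial loci. KAN1, KAN2, FIL and YAB3 each have at least 1 box wholly inside the gene, and of the adaxial loci AS2 does.

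The covered share was also taken by zone along the locus. In the stretch from 1 to 4 kb upstream, THSs covered 19.1% of the bases at the 5 adaxial loci and 8.5% at the 4 abaxial loci, against 6.75% over all protein-coding genes. Per locus, the covered share of this stretch was 32.4% at AS2, 22.8% at AS1, 18.4% at PHB, 15.6% at REV and 5.97% at PHV. On the abaxial side it was 13.8% at KAN1, 12.2% at YAB3, 8.00% at KAN2 and 0 at FIL. The 4 highest values were thus adaxial, and PHV lay below 3 of the abaxial loci. With any 1 locus left out, the adaxial share stayed between 15.7% and 22.3% and the abaxial share between 6.72% and 11.3%. Counting only THSs nearest to the TSS of the locus itself gave 12.6% and 8.5%, since the long THS upstream of AS2 is nearer to the neighbour KOR2. Counting only THSs of at least 200 bp gave 16.0% and 3.96%. At least 1 THS in this stretch was present at 8 of 9 members, all but FIL, against 51.5% of protein-coding genes. The next upstream protein-coding gene was a median of 5350 bp away at the members, against 1112 bp over all protein-coding genes. For most genes the stretch thus reaches a neighbouring gene, and the part of this in the shares was not tested.

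Inside the gene the order was the opposite. THSs covered 13.2% of the abaxial genes and 4.30% of the adaxial genes, against 3.86% over all protein-coding genes. YAB3 had 18.5%, KAN2 13.4%, KAN1 12.9% and FIL 7.08%, whereas AS2 had 8.89%, PHV 6.98%, REV 2.69%, PHB 2.66% and AS1 none. Only AS2 among the adaxial loci exceeded the lowest abaxial locus, FIL. Leaving out 1 locus at a time gave 3.44% to 4.86% for the adaxial and 11.9% to 14.4% for the abaxial genes. A THS over the gene was found at 8 of 9 members (44.3% of protein-coding genes), all but AS1. Bases of an intron lay in a THS at all 4 abaxial loci and at AS2, 5 of 9 members in all, against 7.62% of protein-coding genes. That share includes genes without an intron, whereas all 9 members have at least 1. Coding bases lay in a THS at KAN2, FIL and YAB3, 3 of 9, against 17.2%. Summed over the loci, abaxial THSs held 1041 bp of intron and 247 bp of coding sequence, and adaxial THSs 115 bp and 0. Of the bases covered inside the genes, 770 of 2058 bp at abaxial and 625 of 874 bp at adaxial loci were 5′ UTR. In both zones, 1 to 4 kb upstream and the gene, the groups were set side by side after their values had been seen.

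**Figure D3:**
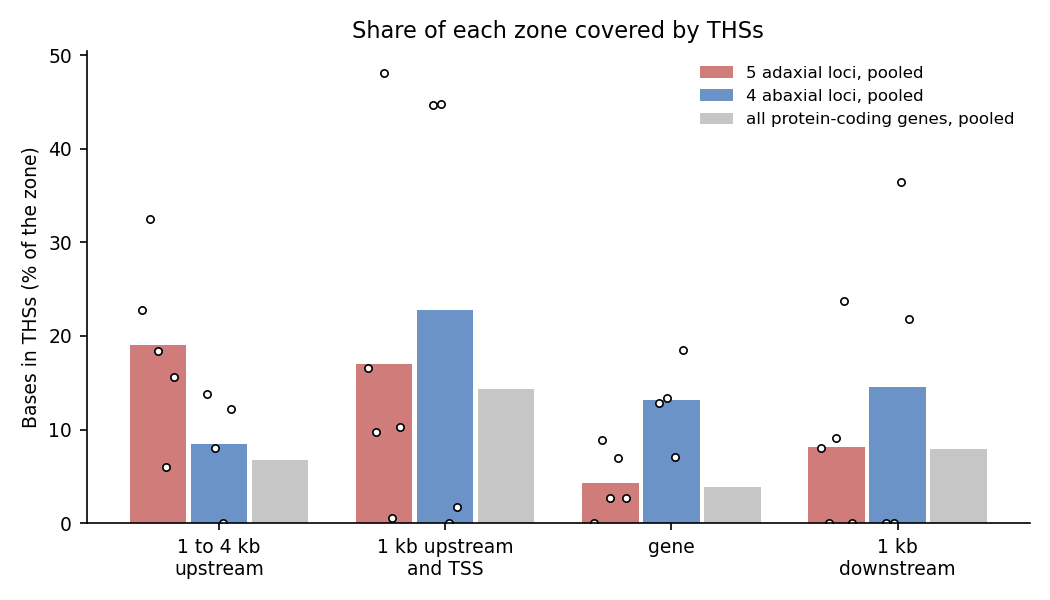
Bars give the percent of bases inside THSs in each of 4 zones, pooled over the 5 adaxial loci (red), the 4 abaxial loci (blue) and all protein-coding genes (grey); circles are single loci. In the stretch 1 to 4 kb upstream the adaxial bar (19.1%) stands above the abaxial one (8.5%), and in the gene the abaxial bar (13.2%) stands above the adaxial one (4.30%), while circles of the 2 groups overlap in every zone.

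In the first 1 kb upstream the groups showed no such order. A THS over the TSS or in this 1 kb was found at 8 of 9 members, all but FIL, against 47.6% of protein-coding genes. How much of it was covered varied from 48.1% at PHB, 44.8% at KAN2 and 44.7% at KAN1 to 1.70% at YAB3, 0.599% at PHV and none at FIL. The THSs of AS1, AS2 and YAB3 only reached into the 1 kb from farther upstream. Over the whole group it was 17.0% for the adaxial loci, 9.29% without PHB, and 22.8% for the abaxial loci, against 14.3% for all protein-coding genes. With the larger part of the THS required to lie inside, 3 members were counted. The share of all protein-coding genes was not taken under that rule. A THS across the TSS itself was present at 4 members, PHV, REV, KAN1 and KAN2, against 26.1% of protein-coding genes. THSs in the upstream 1 kb, farther upstream and in the gene together were present at 7 members, all but AS1 and FIL, against 16.7%. A THS across the border of 2 zones counted in both, and AS2 and REV met this rule with 2 THSs each. In the 1 kb downstream, 5 members had one, AS1, PHB, PHV, FIL and YAB3, against 28.9%.

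Viewed in bins of 250 bp, singled out after the values were seen, 7 of the 9 loci had a THS between 1001 and 1250 bp upstream, against 13.0% of protein-coding genes. These were AS1, AS2, PHB, PHV, KAN1, KAN2 and YAB3, hence 4 of 5 adaxial and 3 of 4 abaxial loci. An overlap of 1 bp counted, and the THSs of PHB, KAN1 and KAN2 lay mostly outside this bin. They spanned 520 to 1012, 1234 to 1430 and 603 to 1051 bp upstream. The part that the longer upstream intergenic space of the members has in this bin was not tested. Between 251 and 500 bp upstream, where 23.6% of protein-coding genes had a THS, only KAN1 did. Between 500 and 1749 bp downstream of the TSS no member had one, against 16.9% of protein-coding genes. Between 250 and 499 bp downstream of the TSS 4 members did, AS2, PHV, KAN1 and YAB3, against 6.31%.

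**Figure D4:**
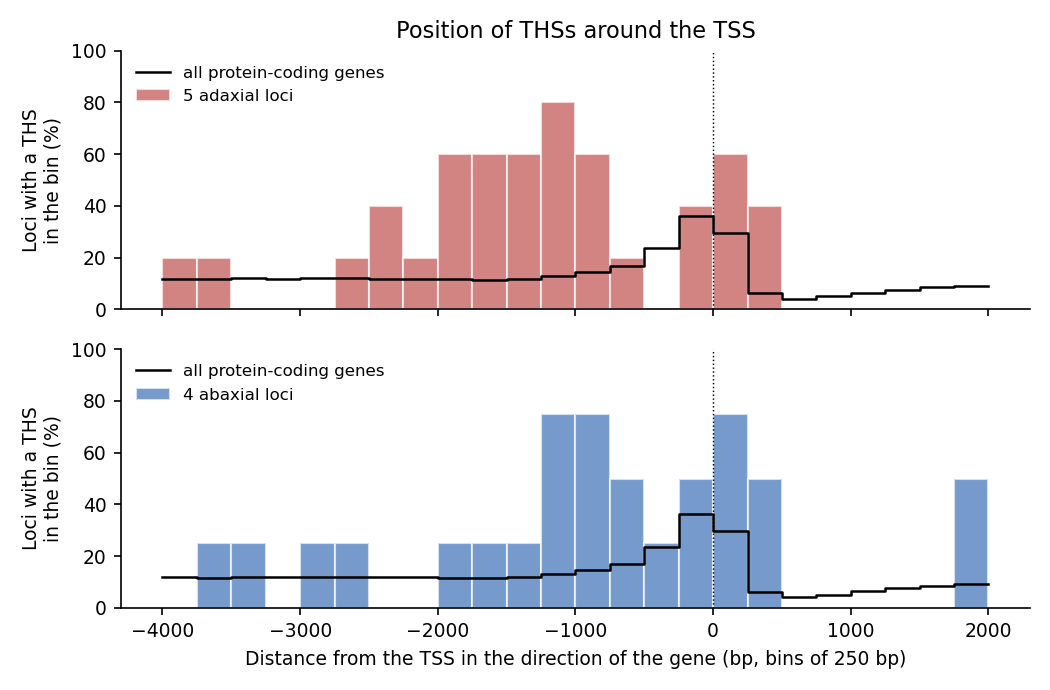
The vertical axis gives the percent of loci with a THS in each 250-bp bin by distance from the TSS, for 5 adaxial loci (upper panel) and 4 abaxial loci (lower panel); the black line is the percent of all protein-coding genes. The line peaks in the bin just upstream of the TSS, whereas the tallest adaxial bar is the bin 1001 to 1250 bp upstream, with 4 of 5 loci. Of these, PHB is counted through a THS that lies mostly nearer to the TSS.

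Among the adaxial genes, AS1 (AT2G37630, chromosome 2, 15781232 to 15783480, minus strand) had 3 THSs, all upstream and intergenic. They lay 835 to 1297 bp (463 bp long), 1732 to 1843 bp (112 bp) and 2178 to 2452 bp (275 bp) upstream of the TSS. The first of them held the only G-box, CACGTG, found in an adaxial THS. The region remaining in the window, of 80 bp, lay downstream within the neighbouring actin gene ACT1. No THS touched the gene itself, and the next one upstream was 6876 bp from the TSS.

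AS2 (AT1G65620, chromosome 1, 24398143 to 24400989, plus strand) had the longest THS of the set. It measured 1070 bp, from 24396170 to 24397239, which is 904 to 1973 bp upstream of AS2, in the 2639 bp between AS2 and KOR2. Its nearer edge stood 667 bp from the TSS of KOR2, an endo-glucanase gene, so the list alone does not assign it to either. The second THS, of 253 bp, lay 233 to 485 bp downstream of the TSS, across the end of the first untranslated exon and the start of intron 1. Because KANADI proteins recognise sequences around GAATA, that word was searched on both strands. The upstream THS held 6 matches, but 92.5% of windows of this length centred on a THS anywhere in the list held at least 1, so a match there is a usual thing. The stretch with the 2 matches farthest upstream is printed because it belongs to the longest THS of the set and to a gene that KAN1 represses. It runs from 1543 to 1374 bp upstream (chr1:24396600-24396769, plus strand, TAIR10), with the matches in capitals, of which the second is on the other strand. Among windows of the same 170 bp centred on a THS, 35% held at least 1 match. The printed stretch was chosen to hold its matches, so the 2 are not alike.
AS2 upstream THS: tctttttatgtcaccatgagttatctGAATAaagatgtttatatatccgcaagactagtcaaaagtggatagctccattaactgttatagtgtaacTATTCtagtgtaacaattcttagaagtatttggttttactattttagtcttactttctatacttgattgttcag

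None of the THSs at the HD-ZIP III genes held coding or intron bases of the gene. PHB (AT2G34710, chromosome 2, 14639323 to 14644355, minus strand) had 3 upstream, at 520 to 1012 bp (493 bp), 1394 to 1766 bp (373 bp) and 2488 to 2655 bp (168 bp). The last one, of 225 bp, covered the last 134 bp of the 3′ UTR and 91 bp beyond. PHV (AT1G30490, chromosome 1, 10796124 to 10801093, minus strand) had 1 of 352 bp over the TSS and the 5′ UTR, 1 of 179 bp at 1049 to 1227 bp upstream, and 1 of 275 bp downstream of the gene. REV (AT5G60690, chromosome 5, 24396981 to 24402195, plus strand) had 1 of 242 bp across the TSS and 1 of 468 bp far upstream. The latter spanned 3518 to 3985 bp upstream and so lay just inside the 4-kb limit, while the next THS beyond it was 4674 bp from the TSS. PHB and PHV are close paralogs. PHB had 3 THSs upstream and none at the TSS, and PHV had 1 upstream and 1 at the TSS.

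The site recognised by miR165 and miR166 lies in the coding part of the HD-ZIP III mRNAs and is what confines them to the upper side. The mature sequences, read from the annotated miRNA positions, are shown with the seed, bases 2 to 8, in capitals. They share this seed and differ at 1 base near the 3′ end.
miR165a-3p: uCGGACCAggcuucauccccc
miR166a-3p: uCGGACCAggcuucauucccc
The site with the fewest mismatches in each mRNA is given next, as cDNA 5′ to 3′, with bases that form a Watson-Crick pair with miR166 in capitals.
PHB site: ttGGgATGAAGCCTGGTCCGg
PHV site: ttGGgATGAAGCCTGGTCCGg
REV site: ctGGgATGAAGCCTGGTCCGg
In each of the 3 genes 4 of the 21 bases formed no such pair with miR166, of which 2 faced it as G:U wobble pairs, and 3 formed none with miR165, of which 1 was a wobble pair. The site was split between exons 4 and 5 in all 3, so that in the genome it spanned 137 bp in PHB (chr2:14642530-14642666), 116 bp in PHV (chr1:10799330-10799445) and 112 bp in REV (chr5:24398787-24398898). No THS reached it: the nearest one was 2209 bp away in PHB, 1302 bp in PHV and 1667 bp in REV. In each case that was a THS at the TSS or upstream of it.

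On the abaxial side, KAN1 (AT5G16560, KAN in the annotation, chromosome 5, 5406863 to 5411766, minus strand) and KAN2 (AT1G32240, chromosome 1, 11625616 to 11630745, minus strand) had their THSs in a like arrangement. A THS crossed the TSS of each, of 397 bp in KAN1 and 163 bp in KAN2. Each had a longer one in the upper promoter, 546 to 925 bp upstream of KAN1 (380 bp) and 603 to 1051 bp upstream of KAN2 (449 bp). Each also had a distal one, 3408 to 3625 bp upstream of KAN1 (218 bp) and 2667 to 2855 bp upstream of KAN2 (189 bp). Both had a THS wholly inside intron 2, 244 bp at 1964 to 2207 bp from the TSS in KAN1 and 186 bp at 2216 to 2401 bp in KAN2. KAN1 further had THSs of 55 bp and 197 bp upstream, at 352 to 406 bp and at 1234 to 1430 bp. KAN2 had one of 388 bp at 2933 to 3320 bp, with 93 bp in a coding exon and 295 bp in intron 4. All 6 THSs of KAN1 and all 5 of KAN2 were nearest to their own TSS; at least 4 such THSs were present at 1.29% of protein-coding genes, at least 5 at 0.288% and 6 at 0.0729%. By the same count all 9 members had at least 1 (56.2% of protein-coding genes), 7 at least 2 (17.6%) and 5 at least 3 (5.09%). This count depends on gene spacing. The next upstream protein-coding gene lay 9822 bp from KAN1 and 8995 bp from KAN2, against a median of 1112 bp over all protein-coding genes. A THS within 4 kb upstream of either was therefore bound to be nearest to its own TSS. The part of gene spacing in these shares was not tested. The THS at the TSS of KAN1 also overlapped the lncRNA gene AT5G02555, which is transcribed on the other strand.

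The intron 2 sites of both KANADI genes and the shortest site upstream of KAN1 are shown because they hold contrasting sequence. Matches of GAGAGA and GAATA on either strand are in capitals, and each sequence is read along the strand of its gene. The KAN2 site (chr1:11628344-11628529, minus strand) held an uninterrupted GA repeat near its start, and 17.3% of windows of its length held GAGAGA. The KAN1 intron site (chr5:5409559-5409802, minus strand) had a GC content of 27.05%, the lowest of the 33, and held neither word. In the 55 bp upstream of KAN1 (chr5:5412118-5412172, minus strand) the words abutted and shared bases, and 5.29% of windows of that length held GAGAGA and 12.7% GAATA.
KAN2 intron 2: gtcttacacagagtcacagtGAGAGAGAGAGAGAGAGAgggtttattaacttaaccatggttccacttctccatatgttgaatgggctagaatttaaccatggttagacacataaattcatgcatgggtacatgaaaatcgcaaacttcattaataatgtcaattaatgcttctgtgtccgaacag
KAN1 intron 2: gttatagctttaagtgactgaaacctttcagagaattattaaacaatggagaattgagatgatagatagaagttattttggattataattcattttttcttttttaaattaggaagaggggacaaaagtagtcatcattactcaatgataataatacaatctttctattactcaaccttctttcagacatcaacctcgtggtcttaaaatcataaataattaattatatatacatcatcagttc
KAN1 upstream: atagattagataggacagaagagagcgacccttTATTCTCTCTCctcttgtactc

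The YABBY paralogs differed from each other more than the KANADI genes did. YAB3 (AT4G00180, chromosome 4, 72545 to 75576, minus strand) had THSs at 984 to 1159 bp (176 bp) and 1565 to 1770 bp (206 bp) upstream and 1 of 270 bp in the 5′ UTR, 105 to 374 bp from the TSS. Of the remaining regions, one of 291 bp lay toward the end of the gene and one of 218 bp beyond it, both nearer to the TSS of AT4G00170. The upstream THS at 1565 to 1770 bp had a GC content of 49.0%, the highest of the 33, and the one at 984 to 1159 bp overlapped the lncRNA gene AT4G03525. FIL (AT2G45190, AFO in the annotation, chromosome 2, 18628252 to 18630779, minus strand) had no THS at the TSS or within 4 kb upstream, the only member without one. The nearest one upstream was 4724 bp away and 290 bp long. FIL had 1 THS of 179 bp inside the gene, at 1956 to 2134 bp, and 1 of 578 bp downstream that overlapped the gene AT2G45180.

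The 33 THSs were aligned with each other, 528 pairs in all, and 1 pair aligned at an expect value of 0.001 or less. This pair was the THS inside FIL and the one toward the end of YAB3, with 75% identity over 100 aligned positions. The aligned stretch held the start of exon 6 of 7 in both genes, with 76 coding bases in each, and 23 or 24 bases of intron 5 before it. Exons of paralogs are alike without regard to accessibility; what the list adds is that a THS was called over the same exon in both. The stretches are shown with coding bases in capitals, FIL at chr2:18628645-18628743 and YAB3 at chr4:72992-73091, both on the minus strand.
FIL exon 6: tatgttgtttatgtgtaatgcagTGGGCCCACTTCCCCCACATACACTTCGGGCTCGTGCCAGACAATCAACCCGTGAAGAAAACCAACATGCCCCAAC
YAB3 exon 6: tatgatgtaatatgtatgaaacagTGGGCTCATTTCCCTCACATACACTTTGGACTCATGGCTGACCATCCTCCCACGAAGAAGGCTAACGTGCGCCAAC

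Of the 8 words searched in the 33 THSs on both strands, the GA repeat GAGAGA was in 16 (48.5%), 8 at adaxial and 8 at abaxial loci. In windows of the same lengths centred on all THSs of the list, it was in 26.1% on average. GA repeats are bound in plants by BASIC PENTACYSTEINE proteins, which can bring in Polycomb complexes. All 6 member THSs with bases of the member's 5′ UTR held it, those of AS2, PHV, REV, KAN1, KAN2 and YAB3, against 10 of the other 27. Of all 7427 THSs in the list with 5′ UTR bases of a protein-coding gene, 41.6% held it. The KANADI core GAATA was in 18 of 33 (54.5%), against 48.6% on average in windows of the same lengths, with 9 of 15 adaxial and 9 of 18 abaxial THSs. The other words were each in 3 or fewer THSs. TGTCTC, an auxin response element, was in 2 (6.06% against 16.4%), both abaxial, and its variant TGTCGG in 2 (6.86% on average). GGNCCC, bound by TCP proteins, was in 3 (14.2% on average), the G-box CACGTG in 2 (12.2%) and the telo-box AAACCCTA in 1 (3.60%). The HD-ZIP III palindrome was in none, and in 0.0414% of the windows.

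Other genes of the pathway were taken from a list of 33, of which 22 are annotated as protein-coding and the rest as RNA genes. The latter include a ZPR gene, annotated as ncRNA and counted below with its family. Of the 22, 19 had at least 1 THS in the same window, near the 82.7% of all protein-coding genes. Over the TSS or within 1 kb upstream 12 of the 22 had one, against 47.6%. Of all 33, 29 and 20 did, but these shares hold no RNA genes. The median was 2 THSs over the 33 and 3 over the 22. The family counts that follow are of few genes. Those of protein-coding genes are to be read against the same shares. The remaining HD-ZIP III genes, ATHB8 and CNA, and the small ZPR proteins that block HD-ZIP III dimers had THSs at 2 of 2 and 4 of 4 genes. KANADI and YABBY genes outside the 9 had THSs at 1 of 2 and 3 of 4 genes, with a median of 1.5 in each family. The auxin response factors ETT and ARF4, which act with KANADI, and ARF2 had THSs at 3 of 3. The genes of miR165 and miR166 had one at 8 of 9, with a median of 1. Their windows were short, 5105 to 5182 bp, against a median of 7078 bp for protein-coding genes. The most THSs were at ARF2 (5), followed by ATHB8, ARF4, BOP1, BOP2, MIR165A and MIR166B with 4 each. BOP1 and BOP2, co-activators, promote AS2 expression. None was listed at KAN4 and INO, which shape the ovule coat, at MIR166C, or at DCL4, which makes trans-acting small RNAs. A gene with no listed THS may still be open below the threshold of the calls.

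**Figure D5:**
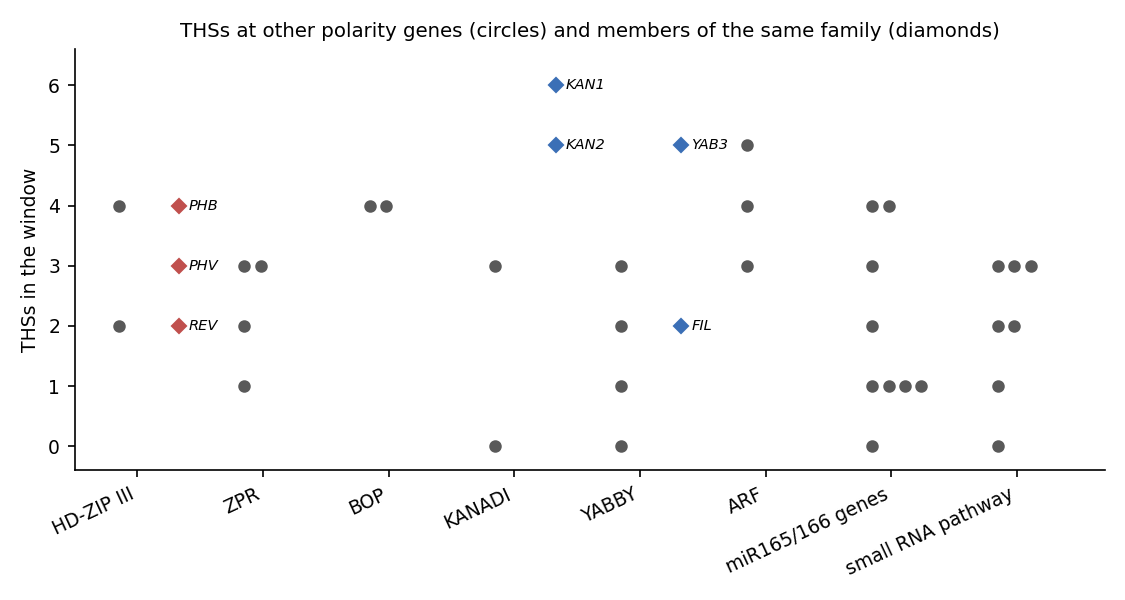
The vertical axis gives the number of THSs in the window and each circle is 1 of 33 other polarity genes, by family; diamonds are the 7 members that belong to a plotted family, adaxial in red and abaxial in blue. KAN1 (6) and KAN2 (5) stand above the other 2 KANADI genes (3 and 0), YAB3 (5) stands above the 4 YABBY genes outside the members (0 to 3), and FIL (2) lies within their range.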

How the data were processed

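Per the study's methods, the authors mapped Trimmomatic-trimmed reads to nuclear TAIR10 with bowtie, removed duplicates and reads in regions of excessive coverage, called peaks per replicate with MACS2 (extension 200 bp, q-value 0.05), intersected the 2 replicates and merged the 6 genotypes. Tool versions are not given in the sources used here. The study then removed regions of low signal, and it reports fewer consensus THSs than the deposited list holds. Whether this step alone accounts for the difference is not stated. That list has 3 columns, chromosome, start and end in bp. Merging keeps a region open in any genotype, and intersecting can leave short pieces. The depth behind each region is unknown.

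Genes came from RefSeq's TAIR10.1 annotation, and 0 THSs exceeded its chromosomes. Coordinates count from 1, and a TSS is the outer 5′ end of a gene record. Exons are those of the longest mRNA. An overlap of 1 bp counted. The nearest TSS was taken among protein-coding genes. Scripts used Python 3.11.15, and overlaps were checked against bedtools and tested on simulated data. THSs were aligned with blastn. Loci are not replicates, so no test was run over them. The members, lists and motifs were chosen with earlier results of these data known. The rule for naming genes took all 9 members, neighbours that own the nearest TSS, and of the other polarity genes those with no THS and the 3 with the most; genes tied with these were named after their values were seen.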

Additional observations from a re-analysis of the deposited data

How the results depend on the processing

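Of 66 values under other settings for 8 results, 50 stayed within 1.5 times the main number or, for covered shares, within its 95% binomial interval, which treats bases as independent. Of the THS counts of single loci 41 of 54 did so, of their covered shares 5 of 18, and of the covered shares by zone 9 of 39. With regions of at least 200 bp the abaxial loci had 11 THSs and a median of 3, equal in total to the adaxial 11, and the median covered shares were 10.2% (adaxial) and 10.3% (abaxial). With the gene and 1 kb upstream alone, adaxial loci had 7 THSs, a median of 1 and a covered share of 5.90%, against an abaxial share of 16.3%. With 2 kb upstream the abaxial share was 15.35%. With THSs nearest to the own TSS the shares were 6.95% and 10.85%. Members with a promoter THS fell from 8 to 3 when the larger part of the region had to lie inside, and to 4 with a 500-bp promoter. The shares of all protein-coding genes under these rules were not taken. Leaving out 1 locus at a time gave medians of 2.5 to 3.5 (adaxial) and 5 (abaxial) THSs and covered shares of 10.13% to 12.69% and 13.57% to 14.45%. The alternatives for the covered shares by locus and by zone were chosen after seeing the data. No paired analysis was possible because the list names no sample or replicate, and no replicate could be left out for the same reason.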
